A study of Bos taurus with 6 samples.

Results

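The 6 genes NT5E, NES, VCAM1, MCAM, CXCL12 and ANGPT1 are used to recognise stromal cells of bone marrow. They were chosen with earlier results of these data known, and their probe sets were taken by name. Every probe set whose only gene symbol in the platform annotation was one of these names was taken. This gave 6 of the 9155 genes with 1 name, on 8 of the 24016 probe sets compared. NT5E and NES had 2 probe sets each. The arrays held RNA of bovine bone marrow mesenchymal stem cells (MSCs) cast in agarose gel and fed a chemically defined medium. With transforming growth factor beta 3 (TGF-beta3), which drives MSCs towards cartilage cells, there was 1 array at day 21, 1 at day 42 from constructs compressed cyclically over the last 21 days, and 1 at day 42 from uncompressed constructs. Without TGF-beta3 there was 1 array each at days 3, 21 and 42. All 6 arrays shared the agarose, the defined medium and the cell source, and no day 3 array carried TGF-beta3. No condition had a second array, and precision is limited by this small number of arrays.

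The genes belong to 3 kinds. NT5E (CD73) is a cell surface enzyme that makes adenosine from AMP and is one of the standard surface markers by which cultured MSCs are defined, VCAM1 (CD106) and MCAM (CD146) are adhesion proteins of the cell surface, and nestin (NES) is an intermediate filament protein. CXCL12 and ANGPT1 are secreted: CXCL12 is the chemokine that holds blood stem cells in the marrow through the receptor CXCR4, and ANGPT1 is the ligand of the receptor TEK. In mouse marrow, stromal cells around vessels that make CXCL12, ANGPT1 and VCAM1 form part of the niche of blood stem cells, and NES and, in human marrow, MCAM have been used to mark such cells.

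Signals are linear intensities in arbitrary units. A signal under 15.1, the 40th percentile of all values, was treated as under the floor: it has no order, it was set to the floor before log2 values were taken, and a difference from it is given as "at least". The arrays differed in ways that touch the day 42 values with TGF-beta3. The median signal of the 18 hybridisation spike probe sets, foreign transcripts added before hybridisation, was 5823 on the loaded and 7304 on the unloaded day 42 array with TGF-beta3, and between 2618 and 3727 on the other 4 arrays. The spikes were thus log2 1.32 higher with TGF-beta3 than without it at day 42, against log2 0.30 at day 21, and log2 1.19 higher at day 42 than at day 21 with TGF-beta3. The cells were checked against markers that define cultured MSCs. NT5E (itself 1 of the 6 genes), CD44, the hyaluronan receptor, and ENG were above the floor on all 6 arrays, and THY1 on 5 of them. ENG lay near the floor, at signals between 19.7 and 47.0. Of 12 blood cell markers, CD14 was above the floor on all 6 arrays and PTPRC on 4, while ITGAM was under it on all 6. LEPR, which marks stromal cells of adult mouse marrow, and NGFR, used to isolate human marrow stromal cells, were under the floor on all 6 arrays.

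**Figure D1:**
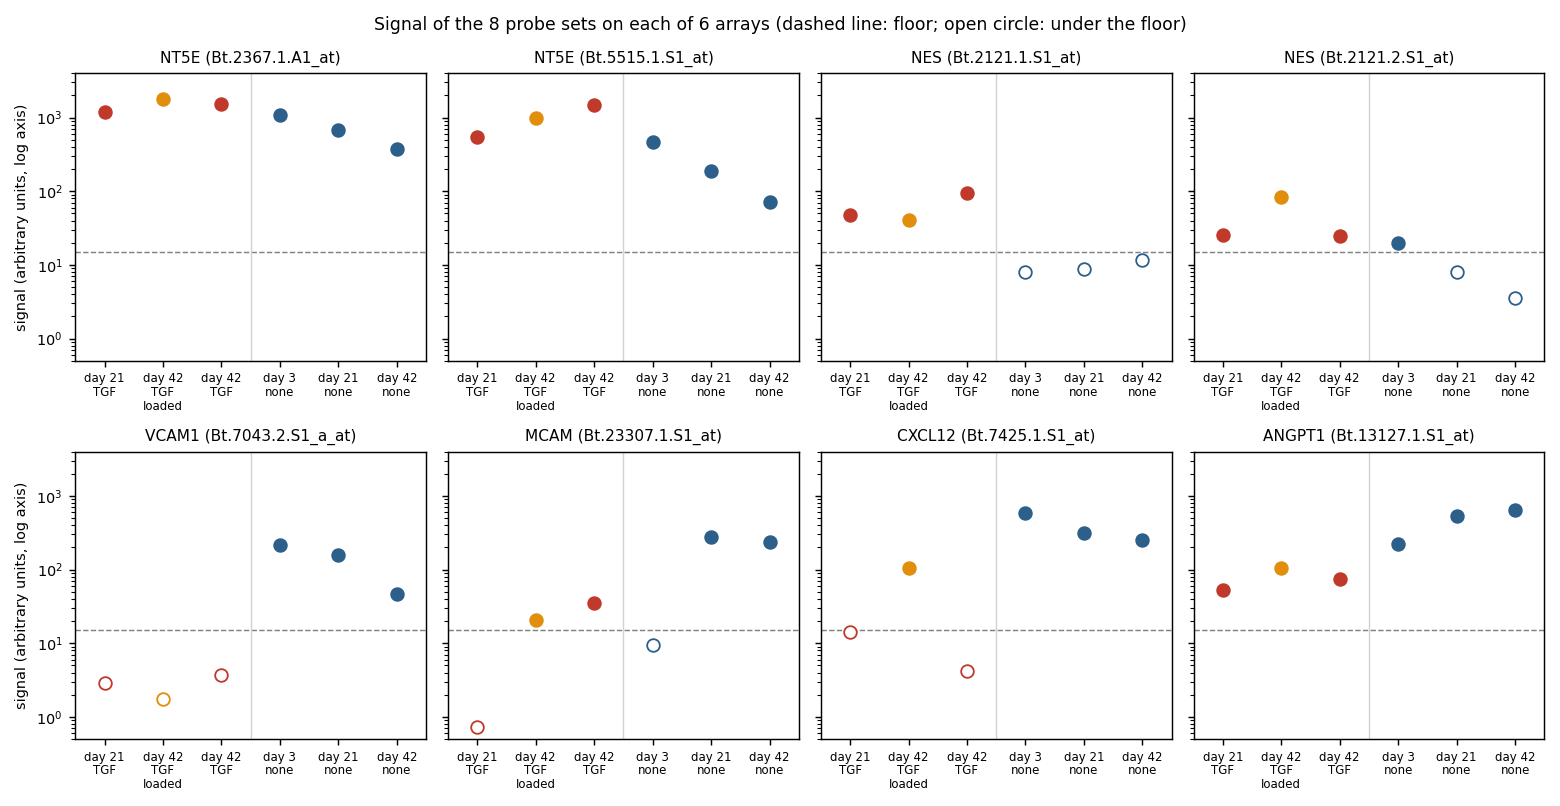
Signal of each of the 8 probe sets on the 6 arrays, on a log axis in arbitrary units, with 1 point per array. Red points are unloaded cultures with TGF-beta3, orange points the loaded culture with TGF-beta3 and blue points cultures without it. The dashed line is the floor of 15.1, and open circles lie under it. VCAM1 is under the floor on all 3 arrays with TGF-beta3, CXCL12 on 2 of them, and both NT5E probe sets are above it everywhere.

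With TGF-beta3, the marrow stromal genes went in opposite directions: transcripts of NT5E and NES rose, and those of VCAM1, MCAM, CXCL12 and ANGPT1 fell. TGF-beta3 was the only factor with more than 1 array on each side, so it was tested on the 4 unloaded arrays of days 21 and 42 with limma and a term for day, over 14839 probe sets. "Rose" and "fell" refer to that test at a Benjamini-Hochberg adjusted p under 0.05, and "higher" and "lower" to sizes. Of the 8 probe sets 3 rose and 4 fell, where 5.84% of all probe sets tested rose and 7.33% fell. Both NES probe sets and those of VCAM1 and CXCL12, 4 of the 8, entered the test only through the side on which they were above the floor, so they had to differ and the count lends no support. The 6 genes were also chosen with earlier results of these data known, so the counts here, by test and by size, lend no support either. The median difference of the 8 was log2 -0.89, against 0.06 over all probe sets tested. By size, at day 21 a higher signal by at least 2-fold was found in 2 of the 8 (13.3% of all probe sets compared) and a lower one in 4 (15.7%). At day 42, 3 were higher (24.5% of all) and 4 were lower (16.2%). The p-values rest mainly on the spread pooled over probe sets, with 1 residual degree of freedom against a prior worth 49.8. With the term for day, that 1 degree measures how far the TGF-beta3 difference varied between the 2 days, not the spread between donors. In these bulk samples, fewer cells of a type and less RNA per cell cannot be told apart.

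**Figure D2:**
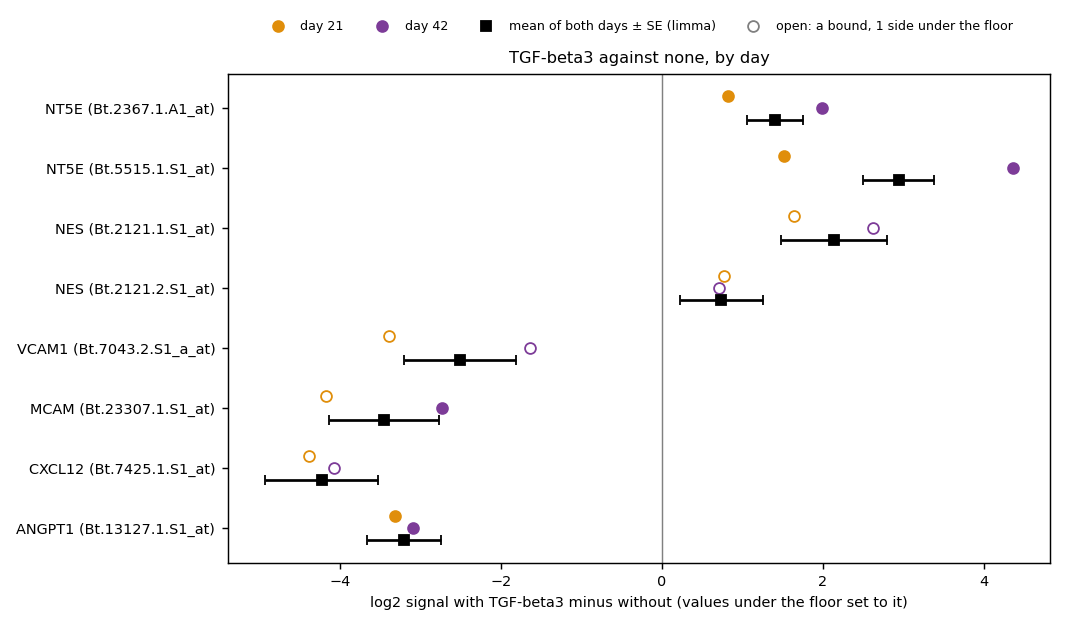
Difference in log2 signal, with TGF-beta3 minus without, for each probe set at day 21 (orange), at day 42 (purple) and as the mean of both days with its standard error from limma (black squares, 2 arrays on each side). Open circles are bounds, since 1 side was under the floor. All 4 NT5E and NES probe sets lie to the right of 0 on both days, and the other 4 to the left.

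NT5E rose on both of its probe sets. The brighter probe set had signals of 1195 and 1508 with TGF-beta3 at days 21 and 42, against 676 and 379 without it. The other probe set had signals of 538 and 1493 with TGF-beta3 at days 21 and 42, against 188 and 72.5 without it. On both probe sets the gap between the 2 groups was wider at day 42. The brighter probe set was 1.77-fold and 3.98-fold higher with TGF-beta3 at days 21 and 42, and the other 2.87-fold and 20.6-fold. By rank on its own array, which no scaling alters, the brighter probe set lay at percentiles 95.8 and 96.6 with TGF-beta3 and 92.4 and 86.8 without it. The mean log2 difference was 1.41 ± 0.35 (SE, n = 2 arrays per side; adjusted p = 0.00322 by limma) for the brighter and 2.94 ± 0.44 (adjusted p = 1.07e-06 by limma) for the other probe set. Between the 2 days the TGF-beta3 difference itself varied by log2 1.17 and 2.84, which these SEs, drawn mainly from the pooled spread, do not show. The call of the brighter probe set was lost without the day 21 or the day 42 array without TGF-beta3 (log2 1.82 and 0.99, adjusted p = 0.0532 and 0.586 by limma, with no day term), without the variance trend or the day term (adjusted p = 0.136 and 0.0936 by limma), under median centring (adjusted p = 0.182 by limma) and with the arrays scaled to the spikes, where its mean was 0.60 (adjusted p = 0.688 by limma). Under that last scaling the other probe set was 2.14 higher on the log2 scale (adjusted p = 0.111 by limma).

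NT5E signals also differed between days, and the sign of that difference was not the same with and without TGF-beta3. Without TGF-beta3 the brighter probe set had signals of 1082, 676 and 379 at days 3, 21 and 42, and the other 469, 188 and 72.5, so both were lower at each later day. From day 3 to day 21 the log2 differences were -0.68 and -1.32, and from day 21 to day 42 they were -0.83 and -1.37. Scaled to the spikes, the differences from day 3 to day 21 were -0.17 and -0.81, both short of 2-fold. Those from day 21 to day 42 were then -0.995 and -1.53. With TGF-beta3, by contrast, the log2 differences of day 42 minus day 21 were 0.34 for the brighter and 1.47 for the other probe set. Scaled to the spikes these 2 values were -0.85 and 0.29, so the direction of the brighter probe set with TGF-beta3 depends on the scaling. In both media the 2 probe sets kept a common order of arrays, except that the loaded array had the highest signal on the brighter and the unloaded day 42 array on the other.

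Nestin signals stayed near the floor, at no more than 93.5 on any array. Its brighter probe set had signals of 47.3 and 93.5 with TGF-beta3 at days 21 and 42, and was under the floor without it, at 8.83 and 11.7 on the same days and 7.93 at day 3. With TGF-beta3 it was higher at least 3.12-fold at day 21 and 6.17-fold at day 42, with a mean log2 difference of 2.13 ± 0.66 (SE, n = 2 per side; adjusted p = 0.0215 by limma) that is itself set by the floor. This probe set entered the test only through the side with TGF-beta3, so it had to differ and its p-value lends no support. The second probe set had signals of 25.8 and 24.9 with TGF-beta3, against 7.91 and 3.53 without it, both of the last under the floor, and 19.7 at day 3. It did not pass (log2 0.74 ± 0.52, adjusted p = 0.384 by limma). With the median of both probe sets in place of the brighter, NES had a mean of 1.44 (adjusted p = 0.0539 by limma). The call of the brighter probe set was also lost when either array lacking TGF-beta3 was left out (adjusted p = 0.502 and 0.548 by limma, with no day term), in the fit of all 4 arrays with the term for day removed (adjusted p = 0.0934 by limma), and under a 25th percentile floor (log2 2.71, adjusted p = 0.0543 by limma). On both probe sets all 3 arrays with TGF-beta3 were above the floor and those of days 21 and 42 without it were under it.

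VCAM1, which binds the integrin that contains ITGA4, was not above the floor on any array with TGF-beta3. Its probe set had signals of 2.91 and 3.74 with TGF-beta3 at days 21 and 42, under the floor, against 159 and 47.0 without it. With TGF-beta3 it was lower at least 10.5-fold at day 21 and 3.10-fold at day 42, the smaller bound going with the lower signal without TGF-beta3 at day 42. The mean log2 difference was -2.51 ± 0.70 (SE, n = 2 per side; adjusted p = 0.00895 by limma), a size that the choice of floor sets. The probe set entered the test only through the side without TGF-beta3, so it had to differ and its p-value lends no support. A floor at the 25th percentile gave -4.01, and the call was lost without the day term (adjusted p = 0.113 by limma). With either array lacking TGF-beta3 left out, the probe set was above the floor on too few arrays to be tested. Without TGF-beta3 its signals at days 3, 21 and 42 were 214, 159 and 47.0, log2 -0.43 from day 3 to day 21 and -1.76 from day 21 to day 42. Days 3 and 21 lay within 2-fold of each other and their order depends on the scaling: with the arrays scaled to the spikes the first of these differences was 0.08.

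MCAM, the adhesion protein also found on pericytes, had its high signals on only 2 of the 6 arrays. They were 0.717 (under the floor) and 35.3 with TGF-beta3 at days 21 and 42, against 274 and 236 without it. With TGF-beta3 the gene was lower at least 18.1-fold at day 21 and 6.68-fold at day 42. The mean log2 difference was -3.46 ± 0.68 (SE, n = 2 per side; adjusted p = 0.000174 by limma), with 1 of the 4 signals set to the floor. Floors at the 25th and 60th percentiles gave -4.20 and -2.19. The call was lost when the day 21 or the day 42 array without TGF-beta3 was left out (log2 -3.35 and -3.57, adjusted p = 0.137 and 0.106 by limma, with no day term). At day 3 without TGF-beta3 the signal was 9.55, under the floor, so MCAM was at least 18.1-fold higher at day 21 than at day 3. Among the 6 genes and the 3 comparisons of days, this was the largest difference. Days 21 and 42 without TGF-beta3 lay within 2-fold of each other (log2 -0.22, and 0.15 under median centring).

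The chemokine CXCL12 was highest at day 3 and was under the floor in both unloaded cultures with TGF-beta3. Its signals were 14.1 and 4.15 with TGF-beta3 at days 21 and 42, against 317 and 255 without it, and 591 at day 3 without it. Both unloaded arrays with TGF-beta3 were under the floor and all 3 without it were above. With TGF-beta3, CXCL12 was lower at least 20.9-fold at day 21 and 16.9-fold at day 42, and the mean log2 difference was -4.23 ± 0.70 (SE, n = 2 per side; adjusted p = 8.66e-06 by limma). The size of that mean is set by the choice of floor: floors at the 25th and 60th percentiles gave -5.03 and -2.36. CXCL12 entered the test only through the side without TGF-beta3, so it had to differ and its p-value lends no support. Without TGF-beta3, day 21 was lower than day 3 by less than 2-fold (log2 -0.90), and days 21 and 42 differed by log2 -0.31 (0.06 under median centring). With either array lacking TGF-beta3 left out, CXCL12 could not be tested, for the same reason as VCAM1.

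ANGPT1 was above the floor on every array, so its differences are measured on both sides. Its signals were 53.4 and 74.3 with TGF-beta3 at days 21 and 42, against 531 and 635 without it. It was 9.94-fold lower at day 21 and 8.55-fold lower at day 42, so the sizes on the 2 days were close. The mean log2 difference was -3.21 ± 0.46 (SE, n = 2 per side; adjusted p = 5.69e-07 by limma). Its call held with each of the 4 arrays left out in turn (log2 -3.44 to -2.97, the highest adjusted p = 0.0468 by limma, with no day term), whereas MCAM lost its call in 2 of these fits and VCAM1 and CXCL12 could be tested in only 2. Unlike CXCL12, ANGPT1 was lower at day 3 (signal 221) than at days 21 and 42 without TGF-beta3, by log2 1.27 against day 21. The difference from day 21 to day 42 was log2 0.26 without TGF-beta3 and 0.48 with it, and the second was -0.71 when the arrays were scaled to the spikes.

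Without TGF-beta3, then, the genes that fell with it did not share a course over time. VCAM1 and CXCL12 were highest at day 3 (VCAM1 not so when scaled to the spikes, where it was log2 0.08 higher at day 21), but for both days 3 and 21 lay within 2-fold. From day 21 to day 42 VCAM1 differed by log2 -1.76 and CXCL12 by only -0.31. MCAM and ANGPT1 were higher at day 21 than at day 3 and stayed within 2-fold of that at day 42. Between days 3 and 21 without TGF-beta3, 2 of 7 probe sets compared were at least 2-fold higher (7.18% of all) and 1 was lower (5.2% of all). With the arrays scaled to the spikes, none was lower. Between days 21 and 42 without it, none of 6 was higher (3.29% of all), and 2, of NT5E and VCAM1, were lower (10.1% of all). Between days 21 and 42 with TGF-beta3, 2 of 6 were higher (18.1% of all), of NT5E and MCAM, and none was lower (14.1% of all). These comparisons of days have 1 array on each side and no test.

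Cyclic compression was compared at day 42 with TGF-beta3, on 1 loaded and 1 unloaded array, with no replicate check. CXCL12 had a signal of 104 on the loaded array and 4.15, under the floor, on the unloaded one. It was at least 6.84-fold higher under loading (log2 at least 2.77), yet below its 3 signals without TGF-beta3, which were between 255 and 591. With the floor at the 60th percentile, a signal of 55.5, the bound was log2 0.90, and under the other 5 scalings and floors it was at least 2-fold. When the loaded array replaced the unloaded one in the fit, the mean TGF-beta3 difference of CXCL12 was log2 -2.84 ± 0.57 (SE, n = 2 per side; adjusted p = 1.34e-05 by limma). The spikes were log2 -0.33 apart between the loaded and the unloaded array, and scaled to them the bound was log2 2.29.

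As scaled by the authors, none of the other 5 genes was at least 2-fold apart between loaded and unloaded cultures in the same direction on all its probe sets. NES was at 41.1 loaded and 93.5 unloaded on its brighter probe set (log2 -1.19), but at 82.6 loaded and 24.9 unloaded on the other (log2 1.73), so its probe sets disagreed in direction. NT5E was at 1787 loaded and 1508 unloaded on its brighter probe set (log2 0.24), but at 1000.3 loaded and 1493 unloaded on the other (log2 -0.58). ANGPT1 had signals of 105 loaded and 74.3 unloaded (log2 0.50), and MCAM 20.7 loaded and 35.3 unloaded (log2 -0.77). With quantile normalization the MCAM difference was log2 -1.03, past 2-fold. VCAM1 was under the floor on both arrays. In all, 2 of 7 probe sets compared were at least 2-fold higher under loading, where 10.2% of all probe sets were, and 1 was lower, where 8.2% of all were.

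**Figure D3:**
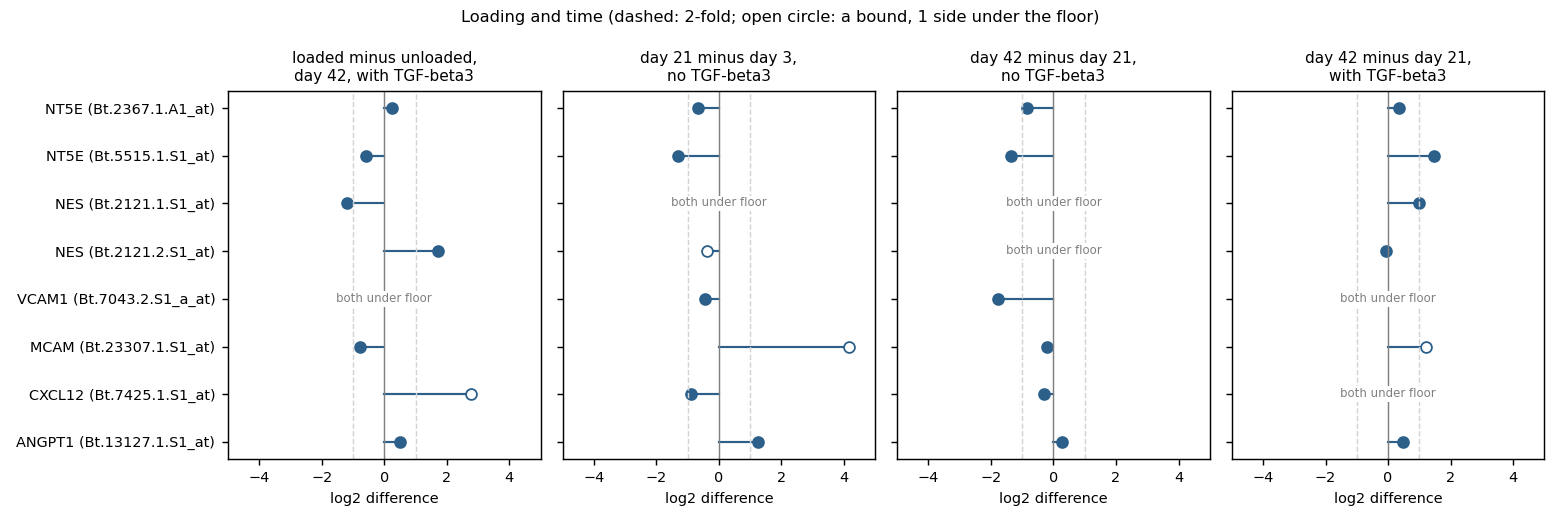
Difference in log2 signal for loaded minus unloaded cultures (left) and for the 3 comparisons of days, 1 array on each side. Dashed lines mark 2-fold, open circles are bounds with 1 side under the floor, and rows with both sides under it carry no point. The longest bars are CXCL12 under loading (at least 2.77) and MCAM from day 3 to day 21 without TGF-beta3 (at least 4.18).

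Other genes of marrow stroma were set beside these from lists of other MSC surface proteins, niche factors, and partners or relatives of the 6 genes, with 1 probe set, the brightest, per gene. Over all 6835 genes tested, 7.11% rose and 7.7% fell with TGF-beta3, and the median log2 difference was 0.13. Of 12 other MSC surface genes tested 1 fell, CD44, and none rose, with a median of 0.10. THY1 was lower by a larger size than CD44 but did not pass (log2 -1.77 ± 0.71, adjusted p = 0.0917 by limma). Its signals were 32.9 and 16.1, the second just above the floor, with TGF-beta3 at days 21 and 42, against 95.5 and 64.3 without it. THY1 passed under median centring and spike scaling, but not under quantile normalization or with the day term removed. CD44 had signals of 185 and 137 with TGF-beta3 at days 21 and 42, against 423 and 483 without it (log2 -1.51 ± 0.41, adjusted p = 0.00833 by limma). Its call was lost when either array lacking TGF-beta3 was left out (adjusted p = 0.296 and 0.475 by limma, with no day term) and under median centring (adjusted p = 0.0798 by limma). Of 8 niche factors tested 1 fell and none rose, with a median of 0.26. That gene, CSF1, a growth factor of macrophages, had signals of 38.5 and 39.4 with TGF-beta3 at days 21 and 42, against 169 and 302 without it (log2 -2.53 ± 0.63, adjusted p = 0.0033 by limma). This call was also lost when either array lacking TGF-beta3 was left out (adjusted p = 0.184 and 0.594 by limma, with no day term). In the fit of all 4 arrays with the day term removed, neither the CD44 nor the CSF1 call held. KITLG, the stem cell factor made by niche cells, was above the floor only at day 3, at a signal of 28.2. IL7 was under the floor with TGF-beta3, against signals of 58.6 and 41.6 without it at days 21 and 42. It had to differ, and did not pass (log2 -1.71 ± 0.62, adjusted p = 0.0574 by limma).

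Among the partners and relatives of the 6 genes, 1 of 13 tested rose and none fell, with a median of 0.00. The gene that rose was not a binding partner but ANGPTL2, an angiopoietin-like protein related to ANGPT1 in sequence (log2 5.35 ± 0.59, adjusted p = 7.87e-10 by limma). For CXCL12, the receptor ACKR3 had signals of 475 and 270.0 with TGF-beta3 at days 21 and 42, against 244 and 234 without it, and did not pass (adjusted p = 0.381 by limma). Its other receptor CXCR4 was above the floor on 1 array, at 19.6. VIM, the filament protein with which nestin assembles, had signals of 4105 and 6551 with TGF-beta3, against 5037 and 4649 without it, and did not pass (adjusted p = 0.906 by limma). ITGA4, which binds VCAM1, was under the floor on all 6 arrays. For NT5E, the enzyme ENTPD1, which makes its substrate AMP, was above the floor on 1 array, at 18.9.

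Markers of other cells moved with TGF-beta3 too. The fat cell markers, of which all 6 tested fell, had summed signals of 468 and 926 with TGF-beta3 at days 21 and 42, against 13584 and 16246 without it. At day 3 that sum was 5070, so it was also higher at day 21 than at day 3, as MCAM and ANGPT1 were. FABP4 and CD36 carried much of the sum, at 2800 and 207 at day 3 and 6719 and 3784 at day 21 without TGF-beta3. PPARG, ADIPOQ and CIDEC were also higher at day 21 than at day 3. LPL went the other way, at 1854, 1217 and 1094 at days 3, 21 and 42 without TGF-beta3. Of 8 blood cell markers tested 3 fell (AIF1, CD53 and CD68) and none rose, with sums of 94.8 and 233 with TGF-beta3, against 507 and 646 without it. All 3 were above the floor only on the side without TGF-beta3, so they had to differ and their count lends no support. The same holds for 2 of the 6 fat cell calls (ADIPOQ and CIDEC). PTPRC, which defines blood cells, had signals between 0.410 and 63.6 and was above the floor on 4 of the 6 arrays. Its highest signals, 63.6 and 48.2, were without TGF-beta3 at days 21 and 42. LAPTM5 instead had its highest signal, 76.7, on the unloaded day 42 array with TGF-beta3, against 29.2 without it at day 42. CSF1R had signals of 17.5 and 29.3 with TGF-beta3 at days 21 and 42, against 3.64 and 11.7, under the floor, without it. Neither LAPTM5 nor CSF1R passed (adjusted p = 0.589 and 0.507 by limma). CD14 was above the floor on all 6 arrays (17.6 to 83.9), LAPTM5 on 5 and TYROBP on 4. CD34, CD48 and CD52 were above it on 1 array each, and ITGAM was under it on all 6. Of 9 smooth muscle and pericyte markers tested 4 rose (of which DES was above the floor on 1 side only) and 1, MYLK, fell. The sums were 11378 and 6446 with TGF-beta3, against 5067 and 5180 without it. TPM2, which did not pass (adjusted p = 0.446 by limma), carried much of these sums. Its signals were 5665 and 4813 with TGF-beta3, against 3343 and 4124 without it. The pericyte gene RGS5 was under the floor on all arrays, and CSPG4 did not pass (adjusted p = 0.161 by limma). Of 2 endothelial markers tested 1 rose, ERG, while CDH5, VWF and KDR were under the floor on all arrays. ERG carried most of that list's sums, which were 447 and 314 with TGF-beta3 at days 21 and 42, against 149 and 84.6 without it. Without ERG they were 58.9 and 104 with TGF-beta3, against 69.2 and 54.3 without it, so the order of the groups was not the same on both days. All 8 cartilage cell markers tested rose (CHAD above the floor on 1 side only), with sums of 35302 and 61092 with TGF-beta3, against 10582 and 9476 without it. When the day 21 or the day 42 array lacking TGF-beta3 was left out (and with no day term), no blood cell marker of 4 testable fell, 3 and 4 of 4 testable fat cell markers fell, 2 and 1 smooth muscle and pericyte markers rose, and 4 and 3 of 8 cartilage cell markers rose. ERG did not pass without that day 42 array (adjusted p = 0.282 by limma). In the fit of all 4 arrays with the day term removed, none of the 9 smooth muscle and pericyte markers and neither endothelial marker passed, 2 blood cell and 5 fat cell markers fell, and 6 cartilage cell markers rose. The part of these cells in the differences of the 6 genes was not tested.

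For each of the 6 genes, on its brightest probe set, the 3 genes with the most similar course over the 6 arrays were taken out of 7227, by the root mean square difference of log2 signals centred on their own means. This is a description over 6 arrays that share their medium, day and array effects. CXCL12 was closest to THBS2, which encodes the matrix protein thrombospondin 2, at 0.30 log2 units. THBS2 had signals of 23.4 and 3.71 with TGF-beta3 at days 21 and 42 and 99.0 on the loaded array, against 568, 243 and 247 without it at days 3, 21 and 42. Like CXCL12 it had a high signal at day 3 and a higher signal under loading. Since THBS2 was picked for closeness over these same arrays, this describes the match and lends no support. The next were ANPEP, a surface peptidase, at 0.65, and the chemokine CCL20 at 0.75.

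MCAM was closest to TRARG1, which takes part in glucose transporter traffic in fat cells (0.30), and to LIPE, the hormone-sensitive lipase of fat cells (0.36), followed by ARHGEF37 (0.37). TRARG1 had signals of 11.5 and 44.1 with TGF-beta3 at days 21 and 42, against 251 and 329 without it, and 1.17 at day 3. ANGPT1 was closest to TCAIM (0.19), AGPAT3, an enzyme of phospholipid synthesis (0.22), and the small heat shock protein gene CRYAB (0.25). NT5E was closest to HAS2, which makes hyaluronan (0.13), with SCNM1 (0.14) and ACIN1 (0.15) next. HAS2 had signals of 204 and 238 with TGF-beta3 at days 21 and 42 and 288 on the loaded array, against 147, 124 and 63.1 without it at days 3, 21 and 42. VCAM1 was closest to RBM43 (0.33), the endothelin receptor gene EDNRA (0.39) and the ligand gene TGFB2 (0.43). NES was closest to MLLT3 (0.08), the mitotic gene CDC20 (0.12) and EPS15L1 (0.14). Of the 6 values being compared, the floor set 3 for NES and for VCAM1, 2 for MCAM and for CXCL12, and none for NT5E and ANGPT1.

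**Figure D4:**
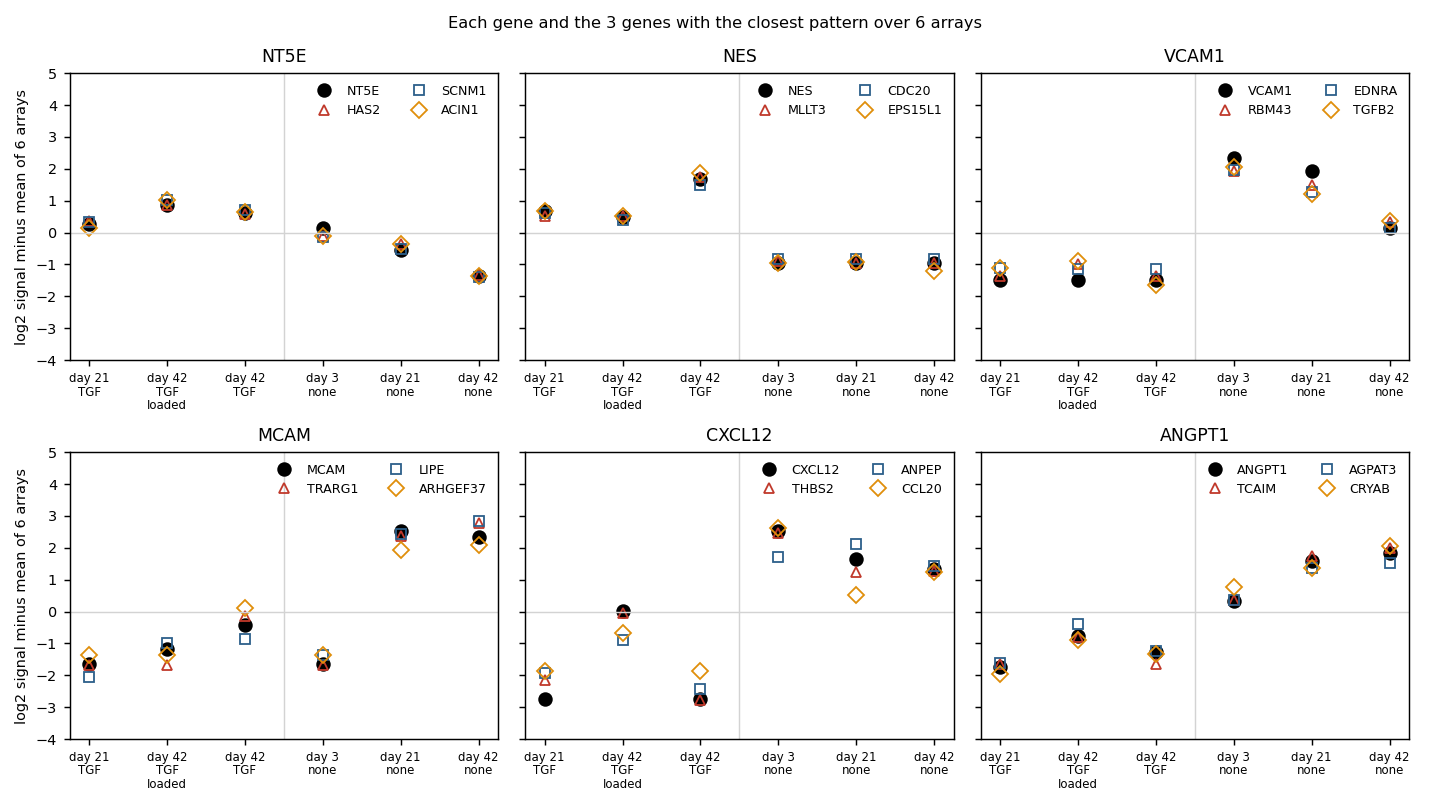
Log2 signal minus its own mean over the 6 arrays, floored as above, for each gene (black) and the 3 genes with the most similar course (coloured symbols). The left side of each panel holds the 3 arrays with TGF-beta3 and the right side the 3 without it. CXCL12 and THBS2, the latter picked for closeness over these arrays, both show the loaded array above the 2 unloaded ones with TGF-beta3.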

How the data were processed

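Per the submitters' processing notes, the deposited values are linear signal intensities per probe set made by the authors with MAS5, with no version given in the sources used here. Per the labels' protocols, RNA was extracted with TRIZOL-chloroform, amplified with NuGEN ribo-SPIA and labelled with biotin. The arrays' 2% trimmed means lay between 150.0 and 150.1. This scaling was kept. Of 24128 probe sets 112 controls were left out, and 13292 of the other 24016 had 1 gene symbol. Detection calls were not used here, so the floor stands in for them.

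A probe set entered a comparison when above the floor on 1 of its 2 arrays, and the limma fit when above it on at least 2 of its 4 arrays. The fit used limma 3.58.1 in R 4.3.3 with a variance trend on signal. It was run on simulated data with the same spread for every probe set and no floor or filter. That run therefore does not check the floor and the filter used here. Tables were handled with Python 3.11.15, pandas 2.3.3 and numpy 2.4.6, and plots with matplotlib 3.10.9. The genes and lists were chosen with earlier results of these data known. Named beyond the 6 genes were list members that passed the test, the genes of most similar course (excluding placeholder symbols), and receptors, ligands and cell markers picked from the lists after their values were seen. Alternatives were other scalings, floors, thresholds, variance priors, the day term, the loaded array and each array left out. Scaling to the spikes was added after seeing the data.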

Additional observations from a re-analysis of the deposited data

Results flagged for a closer look

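Between days 21 and 42, 3 probe sets went one way with TGF-beta3 and the other way without it. With 1 array at each point, the differences were not tested against each other. The brighter NT5E probe set differed by log2 0.34 from day 21 to day 42 with TGF-beta3 and by -0.83 without it. The other NT5E probe set differed by 1.47 with TGF-beta3 and by -1.37 without it. MCAM differed by 1.22, a bound, with TGF-beta3 and by -0.22 without it. The spikes differed by log2 1.19 between the same days with TGF-beta3 and by 0.16 without it, and their part in these differences was not tested. Scaled to the spikes, the values with TGF-beta3 were -0.85, 0.29 and 0.41. Under median centring the MCAM value without TGF-beta3 was 0.15, so MCAM then went the same way in both media.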

How the results depend on the processing

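The TGF-beta3 count over all probe sets was 1954, but 1030 without the variance trend, 570 without the day term, and 340 to 3773 in fits that left out 1 array and the day term. Of the 8 probe sets of the 6 genes 7 passed, but 3 without the day term (none that rose) and 2 to 6 of the 6 testable with 1 array left out, the 2 when either array lacking TGF-beta3 was left out. With no filter on low values limma called 0 probe sets, and so 0 of the 8. That fit held 6088 probe sets at the floor on all 4 arrays, and its prior was worth 0.87 degrees of freedom. At an unadjusted p under 0.05 that fit held 2113 probe sets, 4 of them of these genes. Its means equalled those without the day term and without the trend: NT5E 1.41, NES 2.13, VCAM1 -2.51, MCAM -3.46, CXCL12 -4.23 and ANGPT1 -3.21, at adjusted p between 0.518 and 0.681 by limma. NT5E on its brighter probe set also missed the threshold under median centring (1.16), spike scaling (0.60), no variance trend (1.41) and no day term (1.41). NES missed it under a 25th percentile floor (2.71), no day term (2.13) and the median of its probe sets (1.44), and VCAM1 with no day term (-2.51). With 1 array left out NT5E lay between 0.99 and 1.82, MCAM between -4.07 and -2.85, ANGPT1 between -3.44 and -2.97, and NES was 2.13. NES could not be tested when either array with TGF-beta3 was left out. The second NES probe set passed when the loaded array replaced the unloaded one (1.61). Under a 60th percentile floor both NES probe sets and VCAM1 were not tested. By size, the loading count of 3 was 0 under a 60th percentile floor. The count of 3 from day 3 to 21 without TGF-beta3 was 5 at 1.5-fold and 1 at 3-fold, and the count of 2 from day 21 to 42 without it was 1 at 3-fold. The count of 2 from day 21 to 42 with TGF-beta3 was 1 under spike scaling (lower, the second NES probe set), 1 under a 60th percentile floor and 0 at 3-fold. For these values the cause was not tested. No called difference of the 6 genes changed sign under any alternative run. The labels give no replicate numbers. The term for day sets the arrays with and without TGF-beta3 against each other within each day, and the counts without it are given above. Signals under the floor on 2 or 3 of the 6 arrays limit the brightest probe sets of NES, VCAM1, MCAM and CXCL12.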

Other observations

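Under loading, the lists set beside the 6 genes held few genes at least 2-fold higher on the 1 loaded array than on the 1 unloaded array at day 42 with TGF-beta3. Of the partners and relatives of the 6 genes 3 of 17 compared were higher and none was lower, and of the niche factors 1 of 7 was higher and none was lower, where 10.2% of all probe sets were higher and 8.2% lower. The 4 genes were TEK, ANGPTL2, ITGB7 and IL6, named here after their values were seen. TEK, the receptor of ANGPT1, had a signal of 48.4 loaded and 0.979, under the floor, unloaded (log2 at least 1.68). Without TGF-beta3 its signals were 37.1, 36.0 and 21.8 at days 3, 21 and 42, and at day 21 with TGF-beta3 it was 31.0. ANGPTL2 had a signal of 1498 loaded and 602 unloaded (log2 1.32). ITGB7, an integrin subunit, had a signal of 56.7 loaded and 22.3 unloaded (log2 1.34). The cytokine gene IL6 had a signal of 91.4 loaded and 15.9, just above the floor, unloaded (log2 2.53). On other arrays IL6 was at 83.6 at day 21 with TGF-beta3 without loading, and at 123 at day 3 without TGF-beta3. It was under the floor, at 10.3 and 12.8, at days 21 and 42 without TGF-beta3. These pairs have no replicate check.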
